A study of Mus musculus with 4 samples.

Results

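The 10 genes described here encode receptors for glutamate: the AMPA receptor subunits Gria1, Gria2, Gria3 and Gria4, the NMDA receptor subunits Grin1, Grin2a and Grin2b, the kainate receptor subunit Grik1, and the metabotropic receptors Grm3 and Grm5. They were taken as a fixed list of symbols, 10 of the 31055 genes in the count tables, and their levels were followed by library in neurons, Cajal-Retzius cells, oligodendrocyte precursor cells (OPCs) and astrocytes of the mouse hippocampus. The libraries came from 2 male mice with the Dp(10)2Yey duplication, which adds a copy of a segment of mouse chromosome 10 that corresponds to part of human chromosome 21, and from 2 male wild-type (WT) littermates. All 4 mice were 3 months old, on a C57BL/6J background, and each gave 1 droplet-based 3′ library. The study prepared cells on 2 days, each with 1 mouse of each genotype, and the labels do not say which libraries shared a day. Values by library are listed throughout in the order WT replicate 1, WT replicate 2, Dp(10)2Yey replicate 1, Dp(10)2Yey replicate 2.

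AMPA, NMDA and kainate receptors are ligand-gated ion channels built from several subunits, while metabotropic (mGlu) receptors act through G proteins. In the hippocampus AMPA receptors carry most fast excitatory transmission, and NMDA receptors, which combine the obligatory Grin1 product with GluN2 subunits, are known for their part in synaptic plasticity. Glia also carry glutamate receptors: OPCs receive synapses from neurons, and astrocytes respond to glutamate through mGlu receptors and clear it through transporters.

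The 4 libraries held 1039, 1708, 1372 and 2345 cell barcodes with 3002546, 6848466, 5112759 and 9612011 UMIs, where a unique molecular identifier (UMI) marks a captured RNA molecule. Between libraries, 8 barcode sequences were shared. Cells were assigned to a class from the number of its marker genes detected (4 of 12 for neurons, 3 or 4 of 10 for the other 3 classes), and no glutamate receptor gene was among the markers. This gave 128 neurons (10, 58, 19 and 41 by library), 48 Cajal-Retzius cells (8, 17, 9 and 14), 351 OPCs (55, 99, 89 and 108) and 759 astrocytes (106, 172, 180 and 301). A further 2600 microglia served as a reference class of low level. Microglia have been reported to carry some of these receptors, so their UMIs may be free RNA or their own. The median depth was 2675.5 UMIs per neuron, 3868.5 per Cajal-Retzius cell, 4559 per OPC, 2047 per astrocyte and 3598.5 per microglial cell. Neurons had a median of 6 of their 12 markers, Cajal-Retzius cells 8 of 10, OPCs 9 of 10 and astrocytes 8 of 10. By markers of neuron kinds, 104 of the neurons were excitatory and 5 inhibitory, so the neuronal levels are mostly those of excitatory cells. The neurons of WT replicate 1 held the fewest UMIs, 40453 in all against 360048, 98085 and 253512 in the other libraries, and 3 UMIs there already stood for 74.2 UMIs per 1000000 UMIs (counts per 1000000, CPM). Mitochondrial genes took a median of 6.14%, 14.0%, 31.0% and 6.56% of the UMIs of a neuron, highest in Dp(10)2Yey replicate 1. Without cells over 20% mitochondrial UMIs, the 8 receptor genes tested between neurons and astrocytes and the 8 tested between neurons and OPCs all kept the direction and call given below, and 0 of 7 were called between genotypes in neurons, though 2 neuron libraries then held 8 and 6 cells.

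Levels are CPM, the UMIs of a gene divided by all UMIs of its class in a library, times 1000000. A UMI count is a count of molecules and does not grow with transcript length, so CPM is set side by side between genes without division by length. Errors are standard deviations (SD) over the 4 libraries (n = 4), and intervals for a single share or a ratio of pooled counts cover counting error only.

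**Figure D1:**
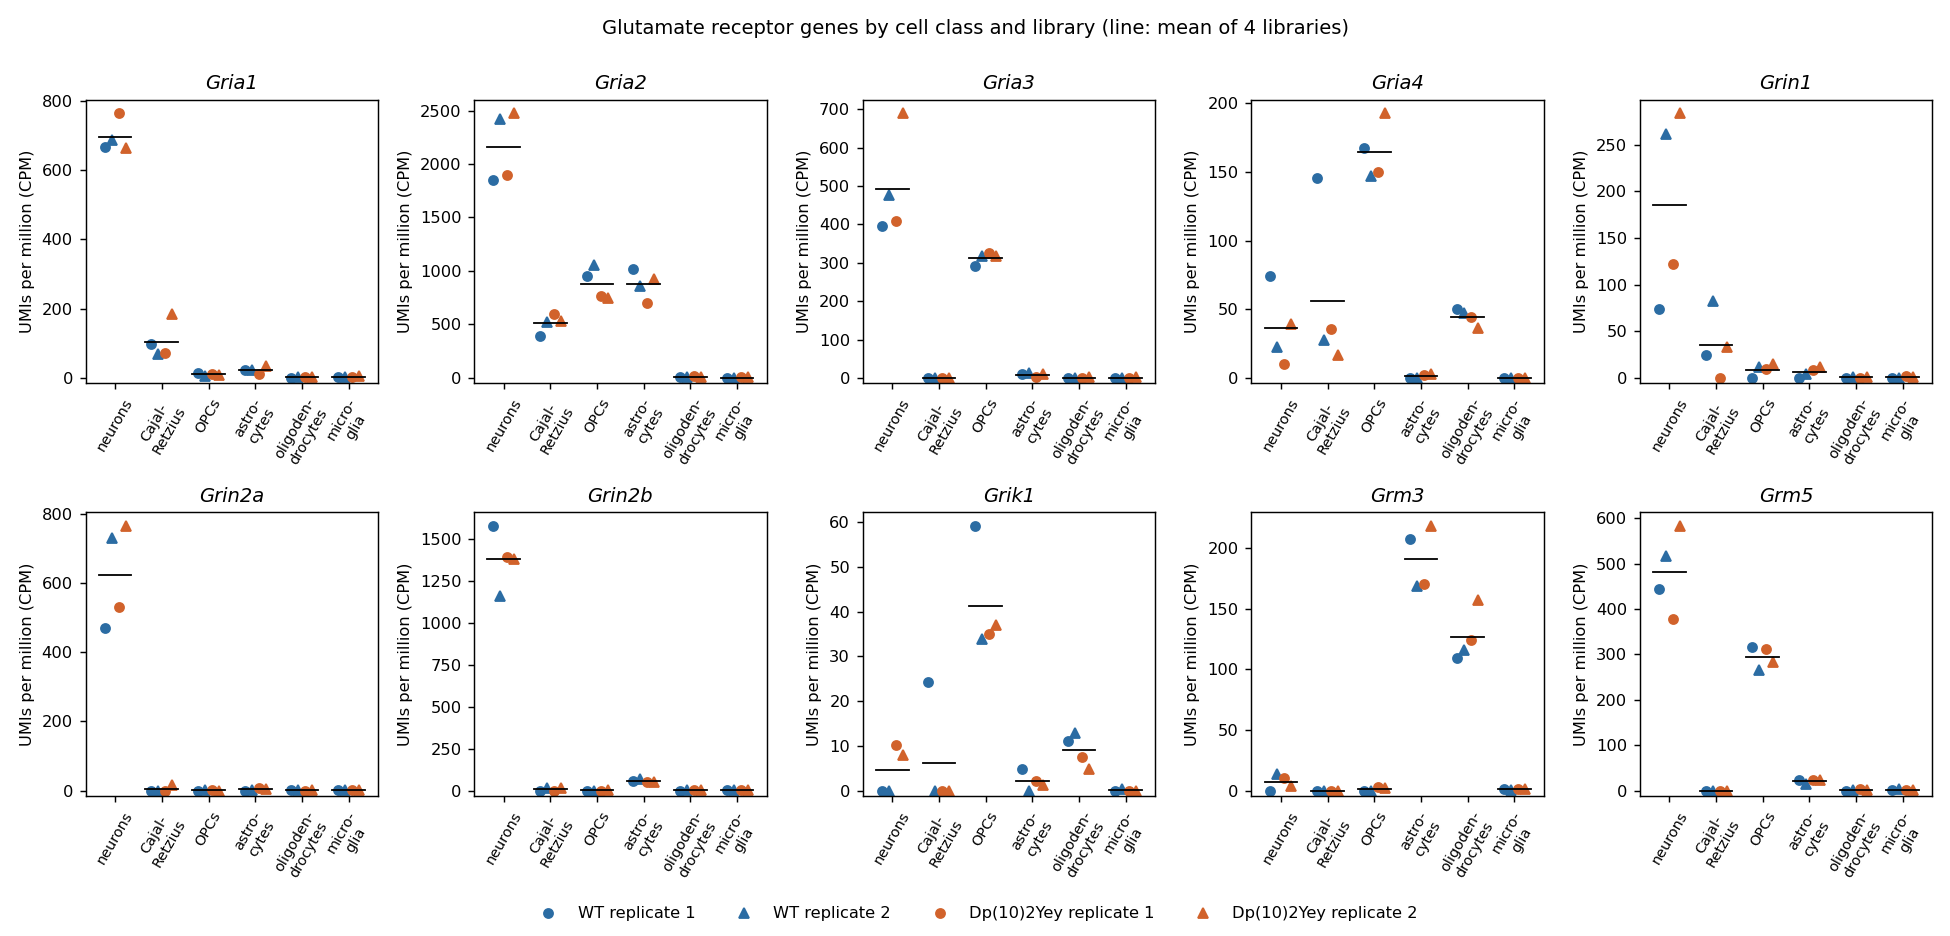
Level of each gene (CPM, linear axis) in 6 cell classes, with 1 point per library (blue WT, orange Dp(10)2Yey; circles replicate 1, triangles replicate 2) and a line at the mean of the 4 libraries. Gria1, Gria2, Gria3, Grin1, Grin2a, Grin2b and Grm5 had their highest mean in neurons, Gria4 and Grik1 in OPCs, and Grm3 in astrocytes.

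Classes were compared on UMIs summed per class and library, with the library as a block, in an edgeR quasi-likelihood fit over all genes, and a gene was called at an adjusted p under 0.01. A filter on low counts let 8 of the 10 genes into the comparison of neurons with astrocytes, 9 into that with OPCs, 7 into that of OPCs with astrocytes and 6 into that of Cajal-Retzius cells with neurons. A gene that passed only through the class where it is high had to differ, so the counts that follow describe the genes and support nothing further. The same limit holds for the fold changes and p values below wherever the lower class held few UMIs. Against astrocytes, neurons had 7 of the 8 tested genes higher, where 24.1% of all 5121 tested genes were higher, and 1 lower, where 29.5% were lower. Against OPCs, neurons had 7 of the 9 tested genes higher (21.3% of 5805 genes) and 2 lower (21.4%). OPCs had 4 of the 7 tested genes higher than astrocytes (21.6% of 7149 genes) and 3 lower (25.5%). Cajal-Retzius cells had 0 of the 6 tested genes higher than neurons (19.2% of 1141 genes) by edgeR, with 0 at an unadjusted p under 0.05 in that direction and 0 by DESeq2, and 6 lower (23%). Against microglia, the tested genes were called higher in 7 of 7 cases for neurons (28.3% of 8238 genes), 2 of 2 for Cajal-Retzius cells (14.8% of 7022), 5 of 5 for OPCs (32.6% of 9223) and 5 of 5 for astrocytes (31.5% of 8938). The median fitted log2 fold change of the tested genes was 4.21 for neurons against astrocytes, 1.46 for neurons against OPCs and 3.15 for OPCs against astrocytes, beside medians of -0.07, -0.07 and 0.00 over all genes tested.

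These fitted values rest on TMM scaling, which differs from CPM between classes. Scaling by the UMI totals alone moved the median of all genes to 0.43 for neurons against astrocytes, to -0.25 for neurons against OPCs and to 0.62 for OPCs against astrocytes. Genes called higher and lower then numbered 1943 and 1103 for neurons against astrocytes (1236 and 1513 with TMM), and 3434 and 992 for OPCs against astrocytes (1541 and 1821 with TMM). Against microglia the totals gave 3233 higher and 1889 lower genes for neurons (2333 and 2744 with TMM), 1707 and 1114 for Cajal-Retzius cells (1038 and 1852) and 5228 and 1726 for OPCs (3005 and 3173), with all-gene medians of 0.44, 0.33 and 0.80 in place of -0.17, -0.43 and -0.05. The astrocyte against microglia median moved from -0.05 to 0.16. RLE scaling moved the median to -0.19 for neurons against OPCs, to -0.37 for neurons against microglia and to -0.61 for Cajal-Retzius cells against microglia. Among the called receptor genes, the direction of Gria2 between OPCs and astrocytes was the exception that changed under one of these scalings.

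Gria1 encodes the AMPA receptor subunit GluA1, a main partner of GluA2 in hippocampal pyramidal cells. In neurons it stood at 667, 686, 765 and 663 CPM, in Cajal-Retzius cells at 96.8, 68.6, 70.6 and 183 CPM, and in astrocytes at 24.2, 21.4, 12.2 and 35.6 CPM. The 4 neuron libraries lay close together and far above every library of the other 3 classes, and the Cajal-Retzius values, from 22 UMIs, lay above all those of astrocytes and OPCs. OPCs were lowest of the 4 classes, with a mean of 10.0 CPM that overlapped the astrocyte values and, at 4.53 to 14.8 CPM, stood just above the microglial 2.14 to 4.41 CPM. The fitted log2 fold change of neurons was 4.35 (SE 0.21, edgeR adjusted p 3.63e-88) over astrocytes and 6.35 (SE 0.27) over OPCs. That of Cajal-Retzius cells was -2.77 (SE 0.29) against neurons, and each had the same direction in 4 of 4 libraries. Astrocytes held 49 UMIs of Gria1 and OPCs 14, so the limit for lower classes with few UMIs holds here.

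Gria2 encodes GluA2, the subunit that limits calcium entry through AMPA receptors, and it was the most abundant of the 10 genes in each of the 4 classes. It stood at 1854, 2419, 1896 and 2477 CPM in neurons, at 952, 1060, 766 and 745 CPM in OPCs, at 1019, 858, 702 and 927 CPM in astrocytes and at 387, 521, 600 and 532 CPM in Cajal-Retzius cells. Every neuron library lay above every library of the other classes, while OPCs (881 ± 151 CPM) and astrocytes (877 ± 134 CPM) overlapped and did not differ beyond their spread. Cajal-Retzius cells were lowest of the 4 classes, below each OPC and astrocyte library, and far above the microglial mean of 3.22 CPM. Neurons were higher than astrocytes by a fitted log2 fold change of 0.88 (SE 0.16, adjusted p 5.45e-08) and higher than OPCs by 1.46 (SE 0.16, adjusted p 2.26e-12), in 4 of 4 libraries each. With clusters in place of marker assignment, which took 424 cells as neurons, Gria2 was at 0.72 against astrocytes and was not called. Between OPCs and astrocytes the pooled CPM ratio was 1.01 (95% interval 0.935 to 1.08), with OPCs higher in 2 libraries and lower in the other 2. The TMM fit nonetheless called Gria2 lower in OPCs, with a log2 fold change of -0.59 (SE 0.10, adjusted p 2.20e-09), which is measured against the other genes of these classes, and the fit on totals alone gave 0.03 (adjusted p 0.763). Set against all UMIs, Gria2 thus led in neither class, and the call rests on the scaling.

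Gria3 encodes GluA3. It stood at 396, 478, 408 and 690 CPM in neurons and at 291, 317, 325 and 318 CPM in OPCs, where the libraries lay within a narrow band. Each neuron library was above each OPC library, and the lead rested partly on Dp(10)2Yey replicate 2, the highest neuron library. The fitted log2 fold change of neurons over OPCs was 0.84 (SE 0.17, adjusted p 2.60e-05, 4 of 4 libraries). It kept its direction but was not called for Gria3 without that library (0.64), with DESeq2 (0.69) or with clusters in place of marker assignment (0.56). In astrocytes 17 UMIs gave a mean of 8.68 CPM, and neurons were higher by 5.42 and OPCs by 4.56 on the log2 scale. Cajal-Retzius cells held 0 UMIs of Gria3 in all 4 libraries, where 3 UMIs over the class, the floor used here for every count of 0 (a 1-sided 95% limit), would be 14.8 CPM. Pooled over libraries, neurons were therefore at least 36.2-fold and OPCs at least 21.3-fold higher than Cajal-Retzius cells.

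Gria4 encodes GluA4 and was the AMPA subunit gene with its highest level in OPCs, at 168, 147, 150 and 193 CPM. All 4 OPC libraries lay above all libraries of the other classes measured. The highest Cajal-Retzius library (145 CPM) came close to the lowest OPC library (147 CPM). Differentiating oligodendrocytes (33 cells) were not among the classes measured. Neurons stood at 74.2, 22.2, 10.2 and 39.4 CPM (3, 8, 1 and 10 UMIs) and Cajal-Retzius cells at 145, 27.4, 35.3 and 16.6 CPM (6, 2, 1 and 1 UMIs), so these classes overlapped and their libraries spread widely. Oligodendrocytes, the class that OPCs give rise to, overlapped both with 44.6 ± 5.79 CPM, and microglia held 0 UMIs. OPCs were higher than neurons, whose fitted log2 fold change was -2.30 (SE 0.31, edgeR adjusted p 1.74e-09, lower in 4 of 4 libraries). The limit for lower classes with few UMIs holds for this value. Astrocytes held 3 UMIs, and the pooled ratio of OPCs to them was 108 (95% interval 36.4 to 525).

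The make-up of the AMPA subunit UMIs differed between classes. In neurons Gria2 made up 65.1% of the UMIs of Gria1 to Gria4 (exact 95% interval 63.3 to 66.9%), Gria1 19.1% and Gria3 14.9%. OPCs had a like share of Gria2, 63.9% (61.8 to 66.0%), but their remaining UMIs were Gria3 (23.2%) and Gria4 (12.2%), with Gria1 at 0.672%. In astrocytes 96.1% (95.1 to 96.9%) of the AMPA subunit UMIs were Gria2, and Gria1 followed at 2.79%. In Cajal-Retzius cells, from 135 UMIs, the shares were 76.3% for Gria2, 16.3% for Gria1 and 7.41% for Gria4, whose share was 23.1% in WT replicate 1 (6 of its 10 UMIs) and 4.44%, 5% and 2.27% in the other libraries. Summed over the 4 genes, the level was 3386 ± 421 CPM in neurons, 1368 ± 133 CPM in OPCs, 910 ± 144 CPM in astrocytes and 671 ± 56.4 CPM in Cajal-Retzius cells.

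**Figure D2:**
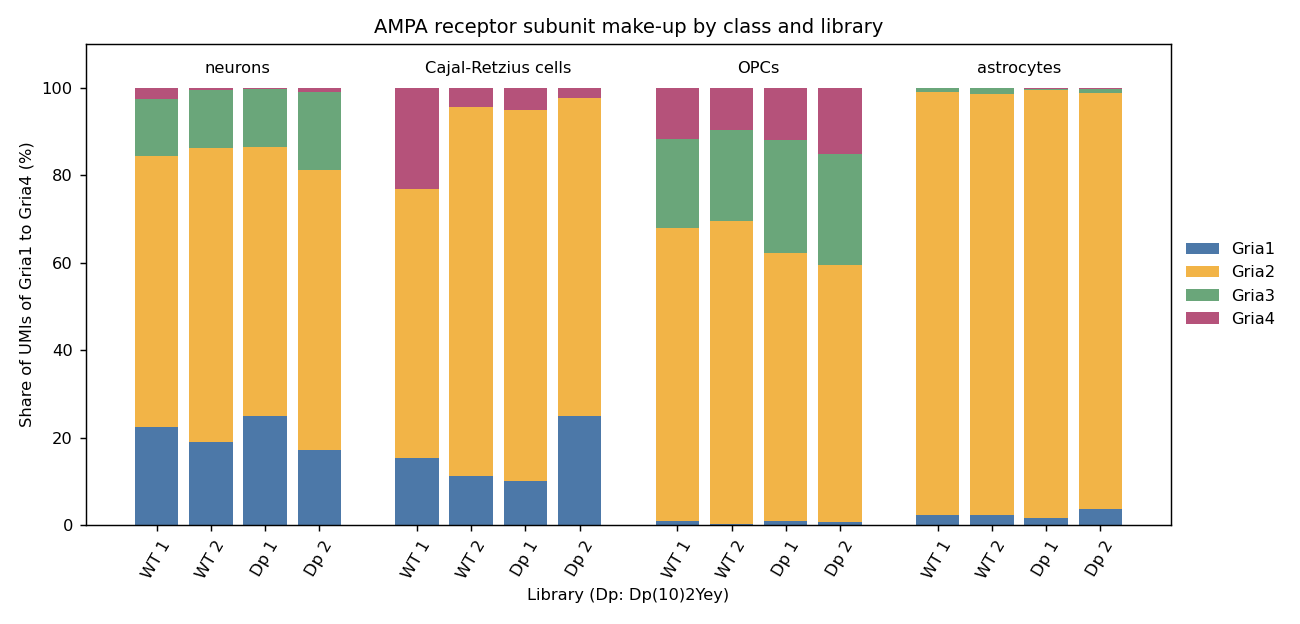
Share (%) of each gene among the UMIs of Gria1 to Gria4 in each class, with 1 bar per library. Gria2 took 95.05 to 97.7% in astrocytes and 58.9 to 69.3% in OPCs, Gria4 was a visible band in OPCs and in the Cajal-Retzius cells of WT replicate 1 (6 UMIs), and Gria1 was nearly missing from OPCs.

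GluA2 limits calcium entry because its transcript is edited at the Q/R site, where ADAR enzymes change an adenosine of the codon in the RNA. The transcript of the kainate subunit gene Grik1 can be edited at the same place. The coding bases around that codon are shown because the genomic codon is one for glutamine in all 5 genes, so that the difference between the subunits arises in the RNA, and because the counts here do not read it. They come from the spliced transcript sequences of the GRCm38 annotation, on the strand of each gene, with the codon in capitals. For Grik1 the coordinates span the intron between exons 13 and 14.
Gria1, chr11:57243073-57243117, exon 11: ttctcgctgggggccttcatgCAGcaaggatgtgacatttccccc
Gria2, chr3:80706890-80706934, exon 11: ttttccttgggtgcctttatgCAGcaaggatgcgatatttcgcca
Gria3, chrX:41610244-41610288, exon 11: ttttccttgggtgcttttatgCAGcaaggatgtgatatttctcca
Gria4, chr9:4464116-4464160, exon 12: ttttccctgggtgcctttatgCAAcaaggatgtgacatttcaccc
Grik1, chr16:87936099-87940565, exons 13 and 14: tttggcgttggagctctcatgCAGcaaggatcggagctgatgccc
Over these 45 bases, Gria1 differed from Gria2 at 9 positions, Gria3 at 3, Gria4 at 6 and Grik1 at 16, and Gria4 carried the synonymous codon CAA. The site lay 8099 bases from the transcript end in Gria2, 3522 in Gria1, 3095 in Gria3, 3138 in Gria4 and 1005 in Grik1. Libraries of this kind read the 3′ end, so the level of Gria2 given above says nothing of how much of it was edited.

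Grin1 encodes GluN1, which every NMDA receptor needs. In neurons it stood at 74.2, 261, 122 and 284 CPM, with 3, 94, 12 and 72 UMIs. The replicate 1 libraries of both genotypes were the low pair and the replicate 2 libraries the high pair, so the spread (185 ± 103 CPM) was wide and the genotypes overlapped. Cajal-Retzius cells held 1, 6, 0 and 2 UMIs, a mean of 34.9 CPM whose highest library (82.3 CPM) reached past the lowest neuron library. OPCs (8.92 CPM) and astrocytes (5.96 CPM) overlapped, and each had 1 library at 0. Neurons were higher than astrocytes by a fitted log2 fold change of 4.32 (SE 0.34, adjusted p 1.98e-36) and than OPCs by 4.43 (SE 0.33), in 4 of 4 libraries each. Grin1 and Grin2b are the 2 of the 10 that overlap other counted genes, all on the opposite strand (Grin1os for Grin1, and Gm14329, Gm14330 and Gm26653 for Grin2b).

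Grin2a encodes the GluN2A subunit. Its neuronal values of 470, 730, 530 and 765 CPM again put both replicate 1 libraries below both replicate 2 libraries, and the genotypes overlapped. Outside neurons it was near the microglial level: Cajal-Retzius cells held 1 UMI, OPCs 2 and astrocytes 7, against a microglial level of 1.39 CPM. The pooled ratio of neurons to astrocytes was 196 (95% interval 94.4 to 490), to OPCs 538 (148 to 4453) and to Cajal-Retzius cells 142 (25.4 to 5630), with wide intervals from the few UMIs.

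Grin2b encodes GluN2B, the subunit that prevails in young neurons, and was second to Gria2 in neurons at 1582, 1161, 1397 and 1385 CPM. Here WT replicate 1 was highest and WT replicate 2 lowest, so the order of libraries seen for Grin1 and Grin2a was not shared. Gria2, Gria3 and Grm5 did share it, with both replicate 1 libraries below both replicate 2 libraries in neurons. So did the sum of all listed receptor genes in neurons, at 5562, 6288, 5526 and 6899 CPM by library. What sets the replicate numbers apart was not tested. Grin2b made up 64.8% of the Grin2a and Grin2b UMIs of neurons (77.1%, 61.4%, 72.5% and 64.4% by library), with Grin2a as the rest. Astrocytes stood at 58.0, 70.6, 48.7 and 52.1 CPM, above every library of Cajal-Retzius cells, OPCs and microglia, and overlapping the immature neurons (80.4 CPM). The 12 neuron markers summed to 53.1, 161, 243 and 177 CPM in the same astrocytes, and their part in the astrocyte Grin2b was not tested. The fitted log2 fold change of astrocytes over microglia was 4.33 (SE 0.31, edgeR adjusted p 4.06e-24). Microglia held 22 UMIs of Grin2b, so the limit for lower classes with few UMIs holds for it. Neurons over astrocytes gave 4.11 (SE 0.18, edgeR adjusted p 8.25e-109). OPCs held 2 UMIs of Grin2b in all, both in Dp(10)2Yey replicate 2, and the pooled ratio of astrocytes to them was 43.1 (95% interval 11.7 to 361). Cajal-Retzius cells also held 2, and neurons exceeded them by a pooled ratio of 131 (36.1 to 1081). Summed over Grin2a and Grin2b, neurons stood at 2005 ± 119 CPM, astrocytes at 60.4 CPM, Cajal-Retzius cells at 11.7 CPM and OPCs at 2.22 CPM. The OPC libraries overlapped those of microglia (mean 3.53 CPM).

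Grik1 encodes the kainate receptor subunit GluK1 and had the lowest peak of the 10 genes, taking each in the class where its mean was highest. It was highest in OPCs, at 59.2, 34.0, 34.9 and 36.9 CPM from 12, 15, 14 and 18 UMIs. WT replicate 1 stood above the other 3 libraries, which were close together. All 4 were above every library of the other classes measured, which did not include differentiating oligodendrocytes. Oligodendrocytes followed at 9.11 CPM and overlapped neurons and Cajal-Retzius cells, which held 3 UMIs and 1 UMI, and astrocytes also held 3. The pooled ratio of OPCs was 9.65 to neurons (95% interval 3.15 to 48.1) and 25.1 to astrocytes (8.17 to 125). Of the 3 neuronal UMIs of Grik1, 2 were in the 5 inhibitory neurons (53.0 CPM, 95% interval 6.42 to 191) and 0 in the 104 excitatory ones, so the ratio does not describe inhibitory neurons. OPCs were higher in 4 of 4 libraries in both comparisons. With so few UMIs elsewhere Grik1 passed the filter through OPCs and had to differ. Its calls are part of the counts above, but no fold change or p value between classes is given for it.

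Grm3 encodes mGlu3, a group II receptor that lowers cyclic AMP, and was the gene of the list with its highest level in astrocytes. The astrocyte values were 208, 169, 170 and 219 CPM, with the genotypes overlapping. Oligodendrocytes came next at 127 ± 21.5 CPM, with each library below each astrocyte library, while OPCs held 2 UMIs and Cajal-Retzius cells 0. The pooled ratio of astrocytes to OPCs was 148 (95% interval 40.8 to 1229), and astrocytes were at least 13.1-fold higher than Cajal-Retzius cells. Neurons held 7 UMIs of Grm3, in 3 of 4 libraries, and the pooled ratio of astrocytes to them was 20.8 (95% interval 9.99 to 52.1), higher in 4 of 4 libraries. Beside this, 9 of the 10 astrocyte markers had UMIs in neurons, most in Slc4a4 and none in Gjb6, and summed to 445, 275, 326 and 197 CPM there against 14242, 13635, 13341 and 14185 CPM in astrocytes; their part in the neuronal Grm3 was not tested.

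Grm5 encodes mGlu5, a group I receptor that acts through Gq and phospholipase C. It stood at 445, 517, 377 and 584 CPM in neurons and at 316, 265, 312 and 283 CPM in OPCs. The neuron libraries lay above the OPC libraries without overlap, and both lay far above astrocytes at 24.2, 14.98, 22.3 and 24.2 CPM. Neurons were higher than OPCs by a fitted log2 fold change of 0.92 (SE 0.17, adjusted p 5.38e-06), which DESeq2 did not call at 0.77, and higher than astrocytes by 4.07 (SE 0.23). OPCs were higher than astrocytes by 3.15 (SE 0.20, edgeR adjusted p 1.57e-53), and astrocytes higher than microglia by 3.75 (SE 0.47, edgeR adjusted p 8.72e-12). Astrocytes held 42 UMIs of Grm5 and microglia 12, so the limit for lower classes with few UMIs holds here. Cajal-Retzius cells held 0 UMIs of Grm5, so that neurons were at least 34.9-fold and OPCs at least 19.6-fold higher. All 12 neuron markers had UMIs in OPCs, most in Snhg11, and summed to 375, 303, 312 and 349 CPM there against 6501, 6782, 7126 and 8465 CPM in neurons; their part in the OPC Grm5 was not tested.

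Shares of cells were compared after cells were thinned to 1000 UMIs, since deeper cells show more genes. Cells with fewer UMIs were left out (12 neurons, 0 Cajal-Retzius cells, 25 OPCs, 177 astrocytes and 438 microglia), so the thinned shares describe the deeper cells. For Gria2 the share of cells with a UMI was 63.8% of neurons, 50% of OPCs (163 of 326), 46.0% of astrocytes and 37.5% of Cajal-Retzius cells, against 0.278% of microglia; unthinned, it was 75.8%, 85.5%, 55.7%, 72.9% and 1.15%. The order of classes thus changed with depth, and at equal depth the intervals of OPCs, astrocytes and Cajal-Retzius cells overlapped. Grin2b was found in 56.9% of thinned neurons and 6.36% of thinned astrocytes (exact 95% interval 4.52 to 8.66%), against 0.185% of microglia. Unthinned, it was 72.7%, 11.6% and 0.769%. Thinned OPCs showed Gria4 in 18.1%, Grm5 in 21.2% and Grik1 in 4.29% of cells, where microglia showed 0%, 0.0463% and 0%. Unthinned, these were 45.3%, 63.5% and 14.5% of OPCs, and 0%, 0.462% and 0.0385% of microglia. The share for Grm3 was 15.3% of thinned astrocytes, 15.5% of thinned oligodendrocytes and 0.185% of microglia. Unthinned, it was 31.0%, 45.7% and 0.423%. The intervals of thinned astrocytes and oligodendrocytes overlapped, and the difference between them was not tested. Grin2a in thinned OPCs (0.307%) and astrocytes (0.344%) had intervals that overlapped that of microglia (0.0925%) and was not told apart from microglia there.

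**Figure D3:**
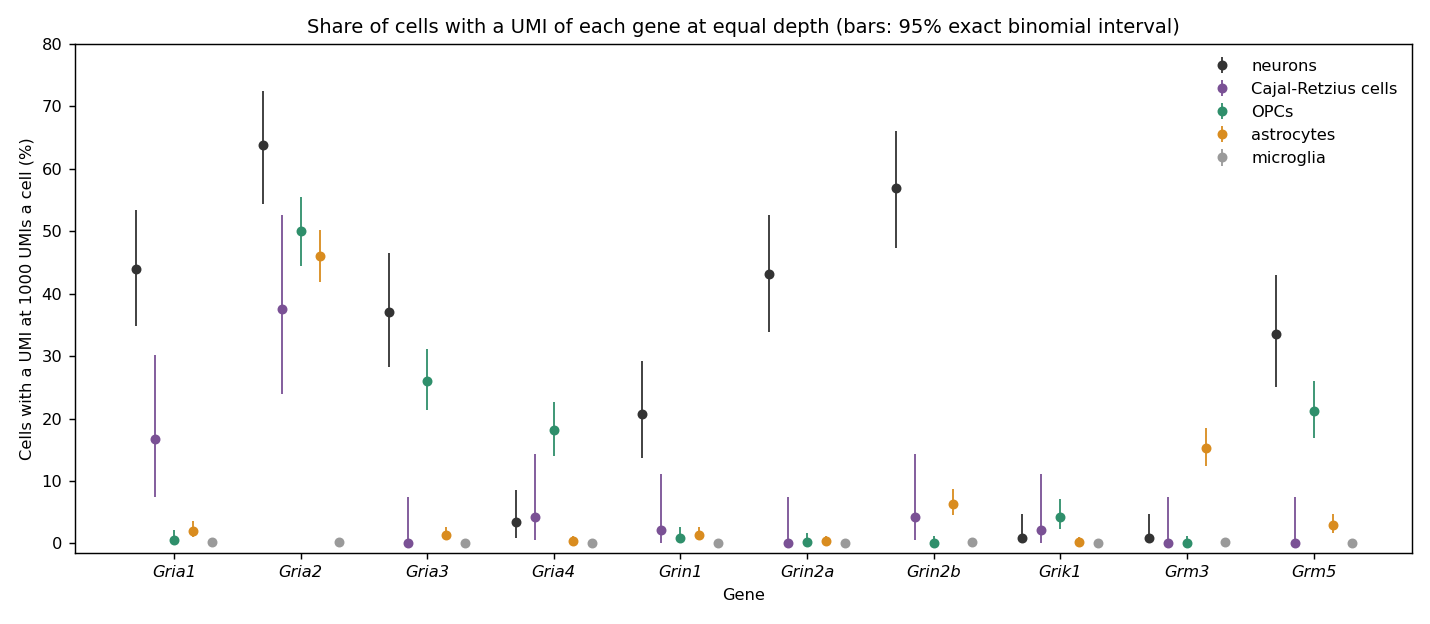
Share of cells (%) with at least 1 UMI of each gene in cells thinned to 1000 UMIs (cells with fewer left out), with exact 95% binomial intervals, in neurons, Cajal-Retzius cells, OPCs, astrocytes and, for reference, microglia. Gria2 was found in 37.5 to 63.8% of the cells of the 4 classes and in 0.278% of microglia.

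Cells that held both an AMPA and an NMDA subunit of the list made up 57.8% of thinned neurons, 4.17% of Cajal-Retzius cells, 4.30% of astrocytes, 0.613% of OPCs and 0.139% of microglia. The NMDA receptor genes Grin2c and Grin3a, described below, are outside the list and were not counted. Pooled over libraries, an AMPA subunit was found in 68.4% of OPCs and 72.4% of neurons, and an NMDA subunit of the list in 1.23% and 64.7%. The neuronal shares varied between libraries of 8 to 55 thinned cells, from 33.3 to 77.1% for Gria2, so the AMPA shares of these classes were not told apart. In Cajal-Retzius cells 54.2% had an AMPA subunit and 6.25% an NMDA subunit of the list. At this depth 0 of 48 had an mGlu gene of the list, which allows a share of up to 6.25% of cells with a UMI.

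The other genes of the pathway were taken as lists, with median fitted log2 fold changes to be read beside -0.07 over all genes for neurons against astrocytes and against OPCs, 0.00 for OPCs against astrocytes and -0.05 for Cajal-Retzius cells against neurons. The shares of all genes called higher and lower were 24.1% and 29.5% for neurons against astrocytes, 21.3% and 21.4% for neurons against OPCs, 21.6% and 25.5% for OPCs against astrocytes, and 19.2% and 23% for Cajal-Retzius cells against neurons. Of 16 further glutamate receptor genes, 5 were tested between neurons and astrocytes, with 2 higher and 2 lower (median 0.29), and 7 between OPCs and astrocytes, with 3 higher and 1 lower (median 0.49). Grin2c, another GluN2 gene, stood at 391, 295, 274 and 298 CPM in astrocytes, where 588 UMIs set it above the 110 of Grin2b, and at 2.55 CPM in neurons (1 UMI) and 0.513 CPM in OPCs (1 UMI). Grin3a, a GluN3 gene, was highest in OPCs at 192, 158, 220 and 166 CPM against 42.8 CPM in astrocytes and 20.1 CPM in neurons, so OPCs carried an NMDA receptor gene that is not among the 10. Of 16 auxiliary subunits of AMPA and kainate receptors, 10 were tested between neurons and astrocytes, with 9 higher and 0 lower (median 3.44, 10 at an unadjusted p under 0.05, edgeR), and 12 between neurons and OPCs, with 6 higher and 3 lower (median 1.43). Cacng4, which encodes a TARP auxiliary subunit, was at 829, 781, 756 and 806 CPM in OPCs against 2.78 CPM in neurons and 7.80 CPM in astrocytes, while Cnih2 stood at 440 CPM in neurons and 51.4 CPM in OPCs. Of 20 postsynaptic scaffolds and kinases, 14 were tested between neurons and astrocytes (12 higher, 1 lower, median 2.39), 15 between neurons and OPCs (13 higher, 0 lower, median 1.94, edgeR, with 14 at an unadjusted p under 0.05) and 5 between Cajal-Retzius cells and neurons (5 lower, median -3.51), with Camk2a at 876 CPM in neurons, 41.4 CPM in Cajal-Retzius cells and 17.2 CPM in OPCs. Of 15 genes of mGlu signalling, 11 were tested between neurons and astrocytes (7 higher, 2 lower, median 1.28) and 7 between OPCs and astrocytes (1 higher, 2 lower, median -0.21), with Gnao1 at 792 CPM in astrocytes and 136 CPM in OPCs. Of 8 transport genes, 6 were tested between neurons and astrocytes (3 higher, 3 lower, median -1.43): Slc1a2, Slc1a3 and Glul stood at 11965, 4479 and 2909 CPM in astrocytes. The vesicular transporters divided the neuronal classes, with Slc17a7 at 695 CPM in neurons and 3.43 CPM in Cajal-Retzius cells, and Slc17a6 at 726, 453, 388 and 432 CPM in Cajal-Retzius cells and 17.4 CPM in neurons.

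Likeness of pattern was measured as Pearson's r of log2(CPM + 10) over 32 sums (8 classes in 4 libraries). The sums share libraries and differ in depth, so r is a description. Cajal-Retzius cells, with 8 and 9 cells in the replicate 1 libraries, were left out of these sums. Among the 10 genes, Gria3 and Grm5 were closest (r = 0.97), being high in neurons and OPCs. Both also held 0 UMIs in Cajal-Retzius cells, which did not enter r. Gria4 and Grik1, both highest in OPCs, had r = 0.87, and the 4 genes Gria1, Grin1, Grin2a and Grin2b had r of 0.87 to 0.93 among themselves. Of 9689 genes outside the lists and markers, those closest to each gene were Sphkap, Lin7b and Fbxo41 for Gria1 (r = 0.96 to 0.95), Sgip1 for Gria2 (0.96), Brinp1, Susd4 and Vstm2a for Gria3 (0.98 to 0.97), and Pou3f1, Tmem196 and Gfra1 for Gria4 (0.93 to 0.90). They were Sncb, Bcl11b and Scn8a for Grin1 (0.97 to 0.96), Gabra5, Scg2 and Kcnj6 for Grin2a (0.98 to 0.97) and Fam84a, Bdnf and Mical2 for Grin2b (0.93 to 0.92). For Grik1 they were Zfp488, Sema3d and Tac1 (0.94 to 0.92), for Grm3 Apln, Daam2 and 1190005I06Rik (0.92 to 0.91), and for Grm5 Kcnd2, Pcdh20 and Gpr158 (0.97).

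The comparison of genotypes asks whether the duplication goes with other levels of these genes. None of the 10 lies on chromosome 10: by the annotation of GRCm38, Gria1 is on chromosome 11, Gria2 on 3, Gria3 on X, Gria4 on 9, Grin1 on 2, Grin2a and Grik1 on 16, Grin2b on 6, Grm3 on 5 and Grm5 on 7. In neurons edgeR called 0 of the 7 tested genes, as it did 0% of 3533 genes, and 0 of the 7 and 161 of the 3533 had an unadjusted p under 0.05 (DESeq2: 0 called, 29 genes unadjusted). In Cajal-Retzius cells, Gria2 was the gene that could be tested and was not called (0% of 906 genes, 32 at an unadjusted p under 0.05; DESeq2: 0 called, 2 genes unadjusted). In OPCs 0 of 5 tested genes were called (0% of 7330 genes), with 1 of the 5 and 296 of all genes at an unadjusted p under 0.05 (DESeq2: 0 called, 1 of the 5 and 29 genes unadjusted). In astrocytes 0 of 5 were called (0.032% of 6256 genes), with 0 of the 5 and 241 of all genes at an unadjusted p under 0.05 (DESeq2: 0 of the 5 and 2 genes called, 17 unadjusted). The 2 genes that edgeR called in astrocytes were Gm26870 and Lars2, named here after their values were seen.

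The gene of the list with an unadjusted p under 0.05 was Gria2 in OPCs, whose values of 952 and 1060 CPM in WT and 766 and 745 CPM in Dp(10)2Yey did not overlap. Its fitted log2 fold change was -0.43 (SE 0.17), with an edgeR adjusted p of 0.9999 over all genes, so it is not a call. With the replicate number as a block the fitted value was also -0.43, with an edgeR adjusted p of 0.793, and it ranged from -0.51 to -0.31 when 1 library was left out. The share of Gria2 among AMPA subunit UMIs of OPCs was 66.8% and 69.3% in WT and 61.2% and 58.9% in Dp(10)2Yey, without overlap but from the same Gria2 UMIs, while Gria3 and Gria4 had fitted changes of 0.06 (SE 0.19) and 0.15 (SE 0.23). In neurons the fitted change of Gria2 was 0.00 (SE 0.34) and in astrocytes -0.22 (SE 0.21), with overlapping libraries in both. The largest fitted changes in the other classes were those of Gria3 in neurons, 0.28 (SE 0.31), and of Grin2b in astrocytes, -0.41 (SE 0.33), where the WT values of 58.0 and 70.6 CPM lay above the Dp(10)2Yey values of 48.7 and 52.1 CPM. Gria3 in OPCs was also apart, with means of 304 CPM in WT and 321 CPM in Dp(10)2Yey. Altogether 3 of the 10 genes were apart in OPCs, 4 in astrocytes, 1 in neurons and 1 in Cajal-Retzius cells. Chance sets 2 libraries apart from 2 in about 1 of 3 cases. That value is inexact for genes with libraries at 0, such as Grm3 in OPCs (2 UMIs) and Gria4 in astrocytes (3 UMIs). The share of all genes that were apart is not given, so these counts only describe the values. A difference of genotype effects between classes was called for 0 of the genes by edgeR: 0 of 9 between neurons and astrocytes (0.0296% of 6767 genes), 0 of 9 between neurons and OPCs (0% of 7325) and 0 of 8 between OPCs and astrocytes (0% of 8566), with 0 of them at an unadjusted p under 0.05 and 253, 210 and 342 of all genes. The 2 genes called between neurons and astrocytes were Nnat and Cnr1, named after their values were seen. DESeq2 was not run on these differences.

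**Figure D4:**
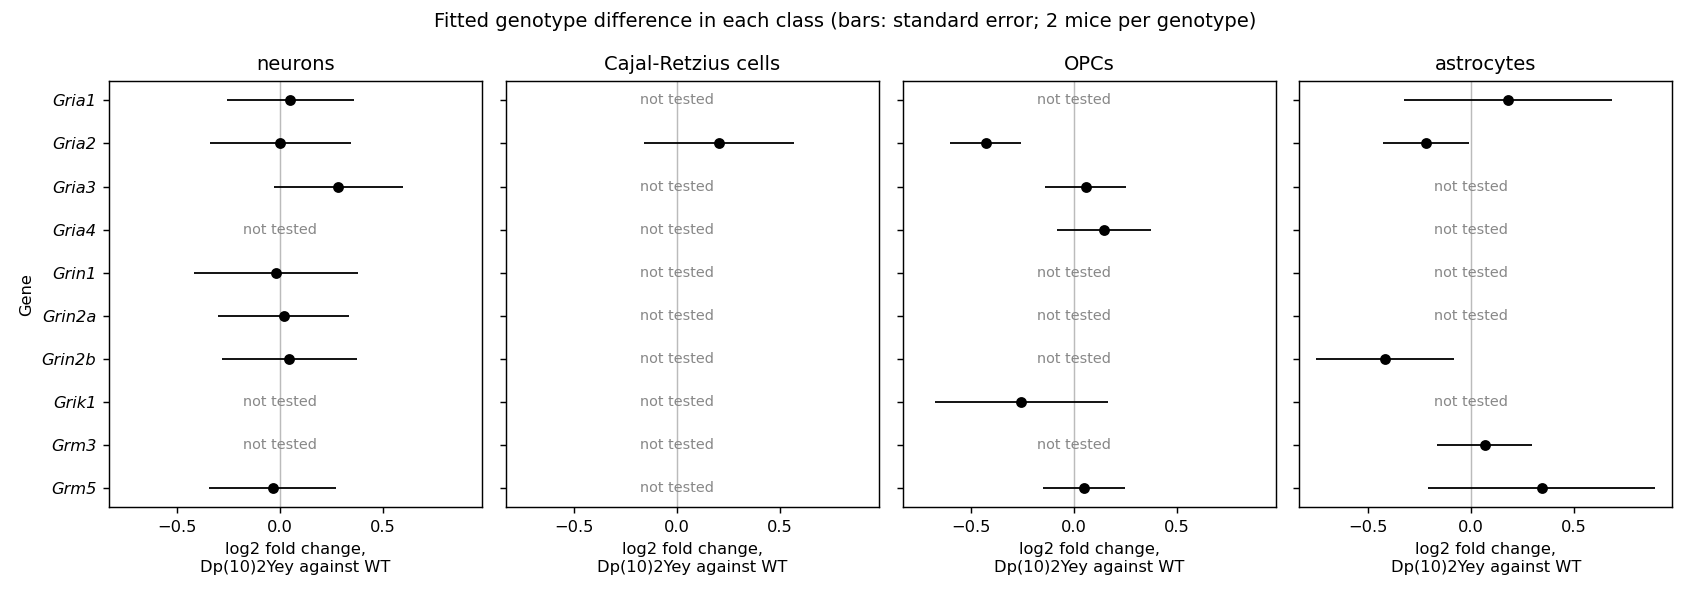
Fitted log2 fold change of Dp(10)2Yey against WT for each tested gene in 4 classes, with the standard error derived from the F statistic (2 mice per genotype). The points lay between -0.43 (Gria2 in OPCs) and 0.34 (Grm5 in astrocytes), and none was called.

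Adarb1, which encodes the enzyme that edits the Q/R site of Gria2, lies in the duplicated segment at chr10:77290726-77418270. It stood at 98.9, 55.5, 112 and 86.8 CPM in neurons (4, 20, 11 and 22 UMIs) and at 39.5, 13.6, 29.96 and 36.9 CPM in OPCs, and the genotypes overlapped in both. The fitted log2 fold change of Dp(10)2Yey against WT was 0.56 (SE 0.50) in neurons and 0.58 (SE 0.51) in OPCs. The edgeR adjusted p was above 0.99 in each. With standard errors of this size the fits cannot tell a rise with the added copy from no change, so Adarb1 is not shown to be unchanged. No editing enzyme passed the filter in astrocytes. Between classes, Adarb1 was higher in neurons than in astrocytes by 3.05 on the log2 scale (SE 0.41, edgeR adjusted p 4.08e-13). Adarb2 was at 84.3 CPM in OPCs and at 0 UMIs in astrocytes.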

How the data were processed

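Single-cell 3′ libraries of the hippocampus of 2 WT and 2 Dp(10)2Yey mice were used. The authors deposited raw UMI counts per gene and cell barcode, made with Cell Ranger 3.0.2 against a custom mm10 reference. Barcodes with under 200 genes and red blood cells were left out (6242 remained). A cell joined a class with at least 4 of its markers (3 in lists of under 9 genes and for Cajal-Retzius cells, which also needed Trp73, Lhx1, Lhx1os or Lhx5), unless an unrelated class had 3 or more markers at over 0.5 times that share. UMIs were summed per class and library and fitted with edgeR 4.0.16 in R 4.3.3 (TMM, low-count filter, quasi-likelihood test, Benjamini-Hochberg over all genes tested, threshold 0.01), with the library as a block between classes and no block between genotypes. The standard error (SE) beside a fitted log2 fold change is its absolute size divided by the square root of the F statistic of that test. The code was tested on simulated data. At least 10 cells per library were needed, 8 for Cajal-Retzius cells and 5 in alternatives that leave out cells (neurons then fell to 6 to 9 cells in some libraries); the 8 and the 5 were chosen after cell numbers were seen. Intervals are 95% exact binomial or Poisson, and a count of 0 is set at 3 counts. Alternatives were DESeq2 1.42.0, RLE factors, UMI totals, no filter, a threshold of 0.05, the replicate number as a block, no library block, a stricter and a looser gate, clusters (scanpy 1.11.5), thinned cells, fewer cells (over 20% mitochondrial UMIs or doublets left out), and each library left out; UMI totals and the looser gate were added after the data were seen. The genes and lists were chosen with earlier results of these data known. Named genes are the 10, Adarb1, from each list up to 5 of the largest called change per class comparison that moved one way in 4 libraries, and the 3 most alike each of the 10 (for Gria2 the closest alone, as an item withheld for evaluation is not reported here).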

Additional observations from a re-analysis of the deposited data

Results flagged for a closer look

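Of 25 sets of 4 libraries (a gene in a class, with at least 10 UMIs), 2 had a library far from the other 3, where chance gives about 1 in 20. Gria4 in Cajal-Retzius cells was 145 CPM in WT replicate 1 (6 UMIs), against 16.6 to 35.3 CPM in the other libraries. Grik1 in OPCs was 59.2 CPM in WT replicate 1 (12 UMIs), against 34.0 to 36.9 CPM. The genotype difference of Gria2 had opposite signs without overlap in a pair of classes: the mean of Dp(10)2Yey was 111.8 CPM above WT in Cajal-Retzius cells and lay at -250.3 CPM relative to WT in OPCs. In Cajal-Retzius cells the fitted log2 fold change of Gria2 was 0.20 (SE 0.37) and ranged from -0.02 to 0.55 with a library left out. With 2 libraries against 2, chance sets the groups apart in about 1 of 3 cases. The difference between these classes was not tested.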

How the results depend on the processing

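Under the alternatives, 757 fold changes of receptor genes between classes kept direction and call, 5 kept direction but lost the call (Gria3 between neurons and OPCs in 3, Grm5 there and Gria2 between neurons and astrocytes in 1 each), and 1 reversed: Gria2 in OPCs against astrocytes, at 0.0335 with UMI totals alone, an alternative added after the data were seen (fitted between -0.85 and -0.47 in the others). Counts of called receptor genes between classes changed by over 1.5 times in 5 cases and not in 123: with thinned cells, which hold fewer UMIs and leave out those under 1000, they were 4 for OPCs against astrocytes, 3 for Cajal-Retzius cells against neurons, 1 for Cajal-Retzius cells and 3 for astrocytes against microglia, and with no filter 4 for Cajal-Retzius cells against microglia. Counts of all called genes with thinned cells were 482 (neurons against astrocytes), 349 (neurons against OPCs), 930 (OPCs against astrocytes), 44 (Cajal-Retzius cells against neurons), and of genes called higher than in microglia 625 (neurons), 272 (Cajal-Retzius cells), 1124 (OPCs) and 1297 (astrocytes). DESeq2 called 2176 for OPCs against astrocytes, no filter gave 988 for Cajal-Retzius cells against neurons, and leaving out libraries there gave 300 (without WT replicate 2) to 568. UMI totals gave 1707 and 5228 higher genes against microglia for Cajal-Retzius cells and OPCs. Between genotypes, no alternative called a receptor gene, though 43 fitted values, all uncalled, changed sign and 265 did not. Counts of all genes called in neurons were 4 with no filter, 3 at a threshold of 0.05, 4 with the replicate block, 1 without cells over 20% mitochondrial UMIs, and 0 to 18 with a library left out. In Cajal-Retzius cells they were 1 with no filter, 1 with clusters and 0 to 2, in OPCs 3, 3 (threshold), 2 (block), 2 (clusters) and 0 to 5, and in astrocytes 5 with no filter, 1 with the block, 11 with clusters, 1 without doublets, 0 thinned and 0 to 17. The cause was not tested. Libraries with the same number were not shown to be paired. For this, the difference in log2 CPM of replicate 1 minus replicate 2 was taken per gene within each genotype. Over genes, the WT and Dp(10)2Yey differences correlated at -0.02 in neurons, 0.07 in OPCs and 0.01 in astrocytes. The values were 0.15 in microglia and 0.16 in oligodendrocytes. A cluster took the class of over 0.5 of its gated cells, a rule set after clusters were seen. By clusters, neurons numbered 424 (46, 139, 145 and 94 by library) in place of the 128 assigned by markers. Of the shares of cells, 37 moved under the alternatives and 13 did not. With a library left out, the lone library of a genotype is assumed to vary like the others. Depth limits neurons of WT replicate 1 (10 cells) and Cajal-Retzius cells (48 cells).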
